A study of Mus musculus with 36 samples.

Results

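The CXC chemokine ligands Cxcl1, Cxcl2, Cxcl9, Cxcl10, Cxcl11, Cxcl14 and Cxcl16 were followed through the messenger RNA of cultured mouse dendritic cells. They are 7 of the 53299 genes in the deposited table, and all 7 passed the filter on low counts. They were chosen by name, with earlier results of these data known. Counts of ligands called, set beside the share of all genes, are therefore a description. The cells were conventional dendritic cells of the cDC1 and cDC2 kinds, induced by FLT3 ligand, a growth factor every group received, in bone marrow cultures. Each kind was given LPS with PGPC, LPS alone, PGPC alone, or nothing. LPS is a component of the outer membrane of Gram-negative bacteria that is sensed by the receptor TLR4, and PGPC is an oxidized phospholipid. There were 3 libraries in each of these 8 groups except cDC2 with PGPC, where n = 2, and the series describes the replicates as biological. Replicates carry the numbers 1 to 3 in cDC1 and 4 to 6 in cDC2. The sources used here do not state strain, age, sex, dose, time of treatment or the way cDC1 were separated from cDC2. A further 13 libraries, those with alum and replicate 6 of cDC2 with PGPC, were left out of the comparisons; they held counts for 467 to 2610 genes each, where the libraries used held 9687 to 15608.

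Levels are given as CPM, counts scaled to the TMM-adjusted library total, and their spread as the standard deviation over libraries. Log2 fold changes carry standard errors, and every adjusted p, unless DESeq2 is named, comes from edgeR's quasi-likelihood test with Benjamini-Hochberg adjustment over 12463 genes and a threshold of 0.05. Library totals in the 23 libraries used ran from 243870 counts in untreated cDC2 replicate 6 to 16601064 counts, so that a floor of 3 counts meant between 0.119 and 11.2 CPM. A gene is said to lie under the floor in a group if its mean CPM was below the group's mean floor. Single libraries could still exceed their own floor. Rows of the ribosomal RNA locus took 1.40 to 29.3% of the counts, with the highest share in untreated cDC1 replicate 1. The summed level of 9 cDC1 markers was 367 to 1813 CPM in cDC1 libraries and 101.7 to 358.2 CPM in cDC2 libraries, with no overlap. The summed level of 8 cDC2 markers was 773.8 to 4311 CPM in cDC2 libraries and 254.5 to 1118 CPM in cDC1 libraries, which overlap.

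Chemokines of the CXC family are small proteins that direct the migration of white blood cells through receptors of the G protein-coupled class. Cxcl1 and Cxcl2 act through CXCR2 and draw neutrophils, and their genes are textbook targets of NF-kB. Cxcl9, Cxcl10 and Cxcl11 act through CXCR3, which is carried by activated T cells and NK cells, and they are induced by interferons. Cxcl16 is made as a transmembrane protein, binds CXCR6 and can be shed from the cell surface, while Cxcl14 is expressed constitutively in many epithelia and in stroma. In dendritic cells, CXCR3 ligands are known for bringing effector T cells to the cell that presents antigen.

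RefSeq promoter windows on GRCm38.p6, of 300 bases each with 250 before the gene's start, were on hand for 5 of the 7 genes and not for Cxcl11 and Cxcl16. The 250 bases before the start are printed for the 4 genes whose windows held a match to a searched motif. Capitals mark matches to the NF-kB consensus or to the ISRE core GAAANNGAAA, the element bound by interferon-activated factors.
Cxcl1: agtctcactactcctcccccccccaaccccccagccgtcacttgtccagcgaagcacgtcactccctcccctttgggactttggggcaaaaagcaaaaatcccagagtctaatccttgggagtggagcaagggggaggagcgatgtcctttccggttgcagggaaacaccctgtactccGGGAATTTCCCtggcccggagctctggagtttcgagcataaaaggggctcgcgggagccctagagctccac
Cxcl2: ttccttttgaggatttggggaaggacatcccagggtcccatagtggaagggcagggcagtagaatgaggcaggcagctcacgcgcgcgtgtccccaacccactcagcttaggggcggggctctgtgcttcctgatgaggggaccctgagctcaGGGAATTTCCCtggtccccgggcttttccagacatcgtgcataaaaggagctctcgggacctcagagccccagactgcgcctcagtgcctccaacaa
Cxcl10: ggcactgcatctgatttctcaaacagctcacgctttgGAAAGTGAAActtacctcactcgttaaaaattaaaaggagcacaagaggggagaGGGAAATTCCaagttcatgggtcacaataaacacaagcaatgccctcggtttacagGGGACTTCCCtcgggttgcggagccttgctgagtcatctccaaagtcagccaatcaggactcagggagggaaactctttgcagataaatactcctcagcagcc
Cxcl14: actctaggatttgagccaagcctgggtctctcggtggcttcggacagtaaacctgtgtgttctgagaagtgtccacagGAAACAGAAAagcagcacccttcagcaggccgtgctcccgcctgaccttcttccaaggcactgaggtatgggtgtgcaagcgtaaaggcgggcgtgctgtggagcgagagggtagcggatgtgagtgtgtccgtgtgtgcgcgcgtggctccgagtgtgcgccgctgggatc
These windows lie at chr5:90890995-90891244 on the plus strand for Cxcl1, at chr5:90903649-90903898 on the plus strand for Cxcl2, at chr5:92348890-92349139 on the minus strand for Cxcl10 and at chr13:56296552-56296801 on the minus strand for Cxcl14. Distances are counted from the start that RefSeq gives. For Cxcl1 and Cxcl2 that start lies downstream of the GENCODE start given below, so their windows run into the GENCODE span. In Cxcl1 the NF-kB consensus was read on both strands in a palindromic stretch from 71 to 61 bases before the start, and in Cxcl2 the same stretch lay from 97 to 87 bases before it. Cxcl10 held 2 separate NF-kB matches, from 159 to 150 and from 103 to 94 bases before the start, and 1 ISRE match from 213 to 204 bases before it. Cxcl14 held an ISRE match from 172 to 163 bases before its start and a match to the GAS core TTCNNNGAA, which is not in capitals, from 191 to 183 bases before it. The window of Cxcl9 held no match to any of the 3 motifs. Searched on both strands, the NF-kB consensus occurred in 4.51% of 32851 mouse promoter windows of the same length, the ISRE core in 3.44% and the GAS core in 8.3%. The matches describe these letters and say nothing of binding in these cells.

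In the GENCODE M21 annotation of GRCm38, 5 of the 7 genes lie on chromosome 5. Cxcl1 (ENSMUSG00000029380.11) spans chr5:90891241-90893115 and Cxcl2 (ENSMUSG00000058427.10) spans chr5:90903871-90905938, both on the plus strand. Cxcl9 (ENSMUSG00000029417.9, chr5:92321347-92328079), Cxcl10 (ENSMUSG00000034855.13, chr5:92346638-92348889) and Cxcl11 (ENSMUSG00000060183.6, chr5:92359544-92365485) follow one another on the minus strand. Cxcl11 is annotated as a polymorphic pseudogene in GENCODE and as a transcribed pseudogene in RefSeq, so its values are transcript values and not evidence of a protein. Cxcl14 (ENSMUSG00000021508.11) is at chr13:56288643-56296551 and Cxcl16 (ENSMUSG00000018920.11) is at chr11:70453983-70459984, both on the minus strand. The reads carry no strand, and Cxcl16 overlaps Zmynd15: for both genes the deposited count was not a whole number in 21 of 23 libraries, with summed counts of 85412 for Cxcl16 and 5961 for Zmynd15. Cxcl2 and its close relative Cxcl3 each had values that were not whole in 4 libraries, so their split is uncertain there.

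Scaled to exon length, Cxcl16 was the most abundant of these transcripts in all 8 groups, from 24.4 ± 8.32 CPM per kilobase in untreated cDC1 to 480.2 ± 88.1 CPM per kilobase in cDC1 given both agents (SD, n = 3 each). Wherever LPS was present Cxcl10 came next, with 222.7 ± 85.9 CPM per kilobase in LPS-treated cDC2 and 34.6 ± 9.85 in LPS-treated cDC1. In the groups without LPS Cxcl14 came next, with 12.2 ± 1.88 CPM per kilobase in untreated cDC2 and 7.13 ± 2.14 in untreated cDC1. The spread of Cxcl16 and Cxcl10 overlapped in LPS-treated cDC2, where Cxcl16 averaged 255.1 ± 75.7 CPM per kilobase. In that group Cxcl14 (6.69 ± 1.36), Cxcl2 (6.55 ± 2.96), Cxcl1 (6.40 ± 3.60) and Cxcl11 (6.07 ± 3.87 CPM per kilobase) came next and did not differ beyond their spread.

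**Figure D1:**
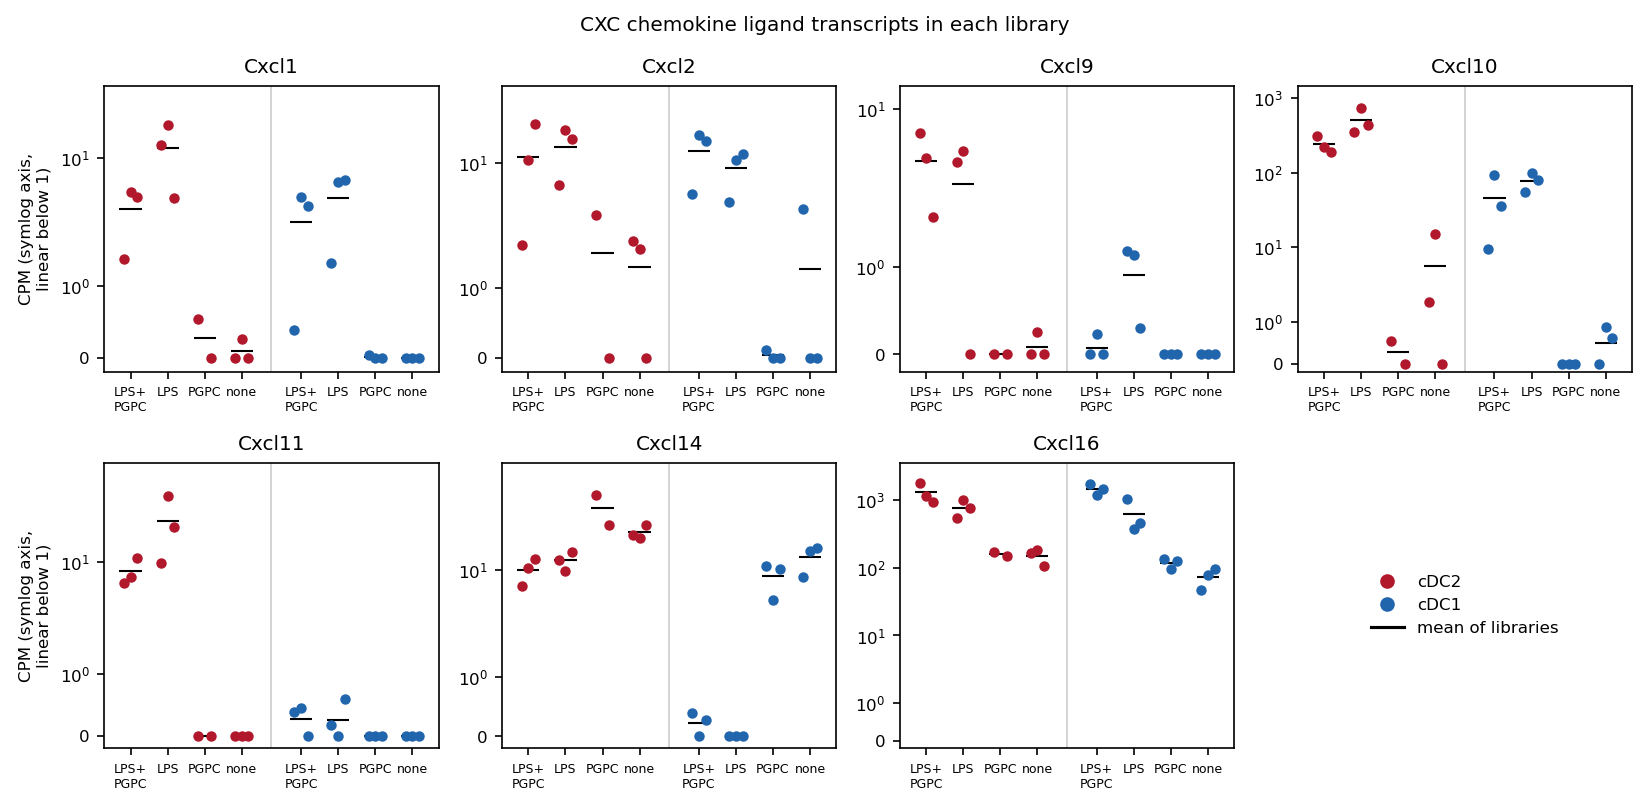
Level of each transcript in CPM (vertical axis, logarithmic above 1 and linear below it) in each library, with cDC2 in red on the left and cDC1 in blue on the right of each panel and a bar at the mean of the libraries. Cxcl10 and Cxcl16 lie higher in every library with LPS than in every library of the same cell without it, and Cxcl14 is at 0 in all 3 LPS-treated cDC1 libraries.

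The main contrast of the design is LPS against no treatment, and it moved this family in both cells. In cDC2, 4 of the 7 ligands rose with LPS (Cxcl1, Cxcl10, Cxcl11 and Cxcl16) and none fell, where 8.52% of all tested genes were called, 5.82% higher and 2.7% lower. In cDC1, 3 rose (Cxcl1, Cxcl10 and Cxcl16) and 1 fell (Cxcl14), where 17.9% of all genes were called, 8.58% higher and 9.36% lower. The median log2 fold change of the 7 was 4.57 in cDC2, or 2.74 when each gene without counts in 1 group takes its bound, while that of all tested genes was 0.03. In cDC1 the fitted median was 3.74, the value of Cxcl11 itself, and that of all tested genes was -0.12. The ligand median was 2.12 with bounds, and with Cxcl9 and Cxcl11 set at 0 because their means lay under the mean floor in both groups. Cxcl9 still had 14 counts in LPS-treated cDC1 replicate 1, or 1.25 CPM against a floor of 0.268 CPM there. LPS with PGPC against PGPC gave the same contrast in libraries that the first one does not use. There, 2 of 7 rose in cDC2 (Cxcl10 and Cxcl16; 6.64% of genes called, 4.43% higher and 2.21% lower) and 5 rose in cDC1 (Cxcl1, Cxcl2, Cxcl10, Cxcl11 and Cxcl16) while Cxcl14 fell (16.4% of genes called, 9.79% higher and 6.6% lower). The median log2 fold change in this contrast was 3.3 in cDC2, or 2.18 with bounds, and 3.61 in cDC1 with Cxcl9 and Cxcl11 again at 0, while all tested genes had 0.12 and -0.07.

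**Figure D2:**
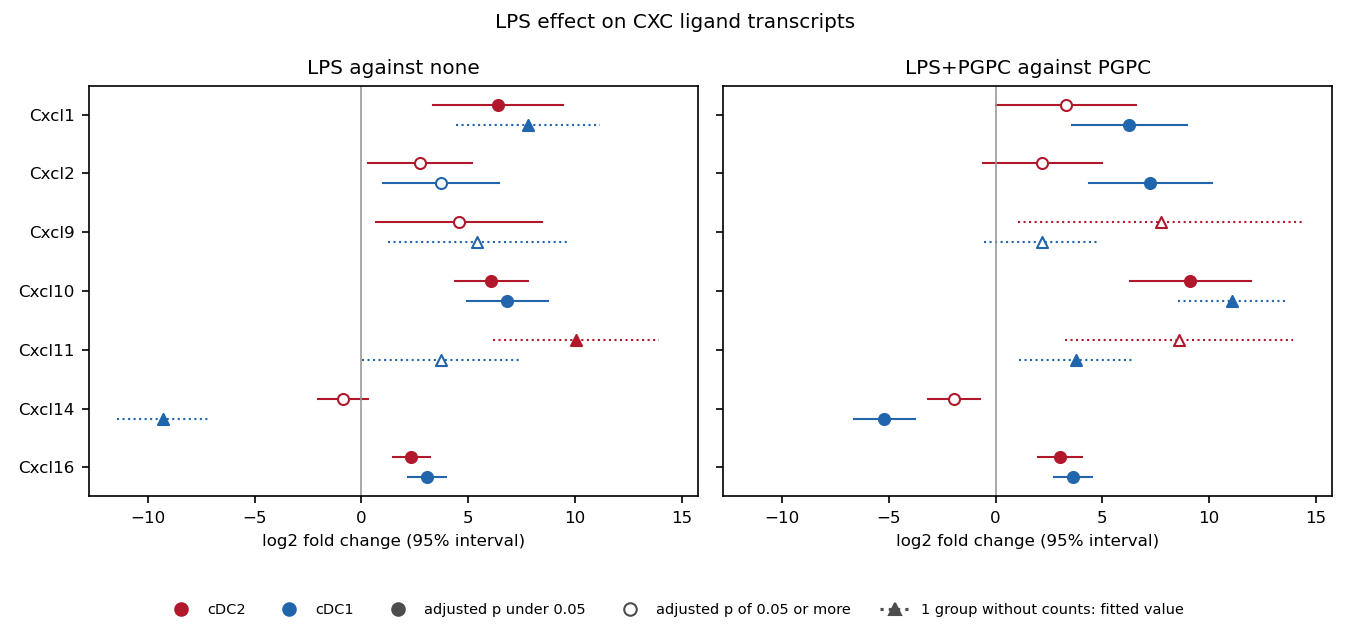
Log2 fold change with its 95% interval (horizontal axis) for LPS against no treatment on the left and LPS with PGPC against PGPC on the right, with cDC2 in red above cDC1 in blue for each gene. Filled marks passed the adjusted threshold, and triangles with dotted lines are fitted values of genes without a count in 1 group, whose size depends on the model; Cxcl14 is the one gene to the left of 0 in both panels and both cells.

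Among the neutrophil-attracting ligands, Cxcl1 was hardly counted without LPS. It had 12.8, 18.3 and 4.89 CPM in LPS-treated cDC2, against 0, 0.258 and 0 CPM in untreated cDC2. In cDC1 it had 1.52, 6.50 and 6.77 CPM with LPS and no count in any untreated library. The groups did not overlap in either cell. However, the floors of untreated cDC2 replicate 6 (11.2 CPM) and untreated cDC1 replicate 1 (2.57 CPM) lay above the lowest LPS value of the same cell. The ratio was 104 in cDC2, from 64 counts with LPS and 1 count without, with a counting interval of 18.1 to 4180 (exact conditional, 95%) and an adjusted p of 0.00598. The cDC1 change was at least 4.35-fold higher, computed against the floor of 3 counts per library, with an adjusted p of 0.0017. Without untreated cDC2 replicate 4, the cDC2 call was lost (log2 fold change 5.56, adjusted p = 0.0714).

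With PGPC present, Cxcl1 had 1.64, 5.50 and 5.01 CPM in cDC2 given both agents, against 0.548 and 0 CPM with PGPC alone, which rest on a single count. That difference did not pass the test (ratio 8.53, counting interval 1.46 to 343, adjusted p = 0.242). In cDC1 the gene had 0.385, 5.0 and 4.21 CPM with both agents, against 0.0395, 0 and 0 CPM with PGPC, a ratio of 149 with a counting interval of 26 to 5930 and an adjusted p of 0.00176. All 3 cDC1 libraries with both agents lay above all 3 with PGPC alone, although the lowest of them rested on 3 counts.

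Cxcl2, the second CXCR2 ligand, had a measurable level in some untreated libraries. In cDC2 it had 6.66, 18.3 and 15.7 CPM with LPS, against 2.41, 2.07 and 0 CPM untreated, a log2 fold change of 2.74 ± 1.18 that missed the threshold (adjusted p = 0.181). In cDC1 it had 4.91, 10.6 and 11.8 CPM with LPS, against 4.28, 0 and 0 CPM untreated. Untreated and treated libraries did not overlap in either cell, but the untreated cDC1 value of 4.28 CPM came from 5 counts in replicate 1, the library with the highest share of ribosomal RNA. The log2 fold change in cDC1 was 3.71 ± 1.32 with an adjusted p of 0.0515, and without that replicate the untreated cDC1 group held no count and the adjusted p was 0.000832. With PGPC present, Cxcl2 rose in cDC1, on 352 counts with both agents and 3 counts with PGPC alone, with a ratio of 190 with a counting interval of 64.3 to 924 and an adjusted p of 0.000812. Its levels there were 5.65, 16.8 and 15 CPM with both agents, against 0.119, 0 and 0 CPM with PGPC. In cDC2 it had 2.23, 10.7 and 20.7 CPM with both agents, against 3.84 and 0 CPM with PGPC, which overlap, and the log2 fold change of 2.18 ± 1.35 did not pass (adjusted p = 0.386).

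Cxcl3, a CXCR2 ligand outside the 7 genes, rose with LPS in both cells by the same test. It averaged 11.5 ± 6.99 CPM in LPS-treated cDC2 and 0.692 ± 0.976 CPM in untreated cDC2 (log2 fold change 3.51 ± 1.00, adjusted p = 0.0258). In cDC1 it averaged 10.5 ± 4.43 CPM with LPS and 0.907 ± 0.740 CPM untreated (3.88 ± 0.96, adjusted p = 0.00626). Cxcr2 itself, the receptor, had no count in any cDC2 library.

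Cxcl10 was the most abundant CXCR3 ligand, per kilobase, in all 4 groups with LPS. It had 349.2, 719.2 and 436.3 CPM in LPS-treated cDC2, against 1.88, 15 and 0 CPM in untreated cDC2. In cDC1 it had 54.5, 98.6 and 80.4 CPM with LPS, against 0, 0.886 and 0.605 CPM untreated. Every LPS library exceeded every untreated library of the same cell, and the highest untreated value was that of cDC2 replicate 5. The log2 fold change was 6.08 ± 0.83 in cDC2 (adjusted p = 4.43e-05) and 6.81 ± 0.91 in cDC1 (adjusted p = 2.17e-05). Without untreated cDC2 replicate 5, which held 58 of the 65 untreated counts, the cDC2 value was 8.23 ± 1.03, and without replicate 4 it was 5.49 ± 0.89, both called.

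In the presence of PGPC the Cxcl10 response to LPS was again seen in both cells. Levels were 305.7, 220.2 and 188.3 CPM in cDC2 with both agents, against 0.548 and 0 CPM with PGPC alone. The ratio was 602 with a counting interval of 108 to 23800 and an adjusted p of 0.000286, on 3603 counts with both agents and 1 count with PGPC, and 0.055 in a fit of all 36 libraries. In cDC1, Cxcl10 had 9.37, 92.8 and 36 CPM with both agents and no count in the 3 libraries with PGPC, so it was at least 107-fold higher (adjusted p = 3.47e-06). The cDC1 libraries with both agents were spread about as widely as their mean, 46.0 ± 42.6 CPM.

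Cxcl11 was counted in LPS libraries only, and mostly in cDC2. It had 9.73, 38.8 and 20.5 CPM in LPS-treated cDC2 and no count in untreated cDC2, which made it at least 5.39-fold higher (adjusted p = 0.00142). With both agents cDC2 had 6.54, 7.33 and 10.9 CPM, against no count with PGPC. That change was at least 2.43-fold and narrowly missed the threshold (adjusted p = 0.0501) with the 2 shallow PGPC libraries. In cDC1 the whole LPS group held 4 counts and the group with both agents 7 counts, against 0 in each of the groups without LPS. The second of these passed the test (adjusted p = 0.048), with no fold given because both groups lay under the floor, and the call was lost in 20 of 29 alternative fits.

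Cxcl9, the third CXCR3 ligand, stayed near the detection limit. It had 4.61, 5.39 and 0 CPM in LPS-treated cDC2, against 0, 0.258 and 0 CPM in untreated cDC2, and the ratio of 31 had a counting interval of 4.92 to 1290 (adjusted p = 0.162). With both agents it had 6.99, 4.89 and 2.05 CPM in cDC2, against no count with PGPC (at least 1.36-fold higher, adjusted p = 0.168). In LPS-treated cDC1 it had 1.25, 1.18 and 0.294 CPM, on 17 counts, against no count in untreated cDC1 (adjusted p = 0.0663). None of these changes in Cxcl9 passed the test at this depth.

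Genes of the interferon axis, the receptors and factors that act on these 3 ligands, also responded to LPS. In cDC2, 6 of the 11 tested members rose with LPS and none fell, with a median log2 fold change of 1.55, where 5.82% of all tested genes were called higher and their median was 0.03. In cDC1, 5 of 11 rose and 1 fell, with a median of 1.33, where 8.58% of all tested genes were called higher, 9.36% lower and their median was -0.12. Irf7, an interferon-induced factor, averaged 3362 ± 952 CPM in LPS-treated cDC2 and 92.0 ± 75.9 CPM in untreated cDC2 (log2 fold change 5.14 ± 0.67, adjusted p = 1.98e-05). Ifnar2, a chain of the type I interferon receptor, was the member that fell in cDC1, with 106.9 ± 15.7 CPM with LPS and 395.8 ± 83.7 CPM untreated (-1.89 ± 0.35, adjusted p = 0.000418). Irf1 rose in cDC2 (2.51 ± 0.45, adjusted p = 0.00045), and Ifnb1 had no more than 1 count in any group, so that it was not tested. Against the same shares and medians of all genes, 7 of the 8 NF-kB axis genes rose in cDC2 and 6 in cDC1, with medians of 2.85 and 2.92, among them Nfkbiz, which encodes an atypical IkB protein, at 4.30 ± 0.65 in cDC2 (adjusted p = 8.55e-05) and 4.93 ± 0.65 in cDC1 (adjusted p = 1.03e-05). The LPS effect differed between the cells for Ifnar2 (2.41 ± 0.49, cDC2 minus cDC1, adjusted p = 0.0121) and Irf1 (2.62 ± 0.60, adjusted p = 0.0233). None of the 4 tested CXC receptors passed the test for LPS against no treatment in either cell. For LPS with PGPC against PGPC in cDC1, 1 of the 4 was called higher and none lower. There 4 of 11 interferon axis genes rose and 1 fell, and 6 of 8 NF-kB axis genes rose (9.79% of genes called higher, 6.6% lower). In cDC2 that contrast called 5 of 11, 5 of 8 and 0 of 4 receptors higher and none lower (4.43% of genes higher, 2.21% lower).

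Cxcl16 was counted in every library, and its log2 fold changes had the smallest standard errors among the ligands that rose. In cDC2 it had 542.2, 999.4 and 769.9 CPM with LPS, against 162.6, 182.6 and 104.8 CPM untreated. In cDC1 it had 1032, 372.6 and 458.9 CPM with LPS, against 46.2, 79.3 and 95.5 CPM untreated. No LPS library overlapped an untreated one, and in cDC1 the LPS value of replicate 1 stood above the other two. The log2 fold change was 2.34 ± 0.42 in cDC2 (adjusted p = 0.000439) and 3.07 ± 0.43 in cDC1 (adjusted p = 1.96e-05). With PGPC present, levels were 1792, 1160 and 950.9 CPM in cDC2 with both agents, against 171.5 and 149.8 CPM with PGPC, a log2 fold change of 3.02 ± 0.50 (adjusted p = 0.000519). In cDC1 they were 1724, 1193 and 1435 CPM with both agents, against 132.6, 95.1 and 127.3 CPM with PGPC (3.61 ± 0.43, adjusted p = 4.88e-06). When the left-out libraries were added to the fit, all 4 of these calls were lost at nearly the same fold changes, with adjusted p from 0.173 to 0.604.

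Proteases that cleave CXC ligands, and regulators of the decay of their messages, were listed as a group of 7 genes. In LPS-treated cDC2, where 5.82% of all tested genes were called higher, 2 of 7 rose, with a list median of 0.25: Zc3h12a, the endoribonuclease Regnase-1 that degrades cytokine messages, at 2.87 ± 0.72 (adjusted p = 0.0103), and Dpp4, a peptidase that trims CXCR3 ligands, at 2.64 ± 0.70 (adjusted p = 0.0152). In cDC1, where 8.58% of all tested genes were called higher and the list median was 0.74, the 2 of 7 that rose were Zc3h12a (3.05 ± 0.72, adjusted p = 0.00444) and the sheddase Adam17 (2.30 ± 0.58, adjusted p = 0.00664). Adam10, the protease best known for shedding Cxcl16, was not called with LPS in either cell.

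Cxcl14 was the one of the 7 that fell with LPS, and its response differed between the cells. It had 12.3, 9.70 and 14.7 CPM in LPS-treated cDC2, against 21.2, 19.6 and 26.2 CPM in untreated cDC2, groups that did not overlap but whose log2 fold change of -0.85 ± 0.57 missed the threshold (adjusted p = 0.466). In cDC1 it had no count in any of the 3 LPS libraries, against 8.55, 14.8 and 15.7 CPM untreated. LPS-treated cDC1 were therefore at least 13.4-fold lower (adjusted p = 2.99e-06), with 0 counts against 231. The difference between the cells in the LPS effect was tested as an interaction and passed (8.42 ± 1.27 on the log2 scale, cDC2 minus cDC1, adjusted p = 0.00145), where 1.33% of genes were called. Since the fitted size rests on a group with no count, the bound is the safer reading: the LPS fold in cDC2 was 0.547, and the ratio of the cDC2 fold to the cDC1 fold was at least 7.32.

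The fall of Cxcl14 in cDC1 was also present when PGPC was given. It had 0.385, 0 and 0.281 CPM in cDC1 with both agents, against 10.8, 5.21 and 10.2 CPM with PGPC, on 6 and 449 counts, a log2 fold change of -5.20 ± 0.69 (adjusted p = 2.19e-05). In cDC2 it had 6.99, 10.4 and 12.5 CPM with both agents, against 49.9 and 25.8 CPM with PGPC. The cDC2 groups did not overlap, and the log2 fold change of -1.95 ± 0.60 narrowly missed the threshold (adjusted p = 0.0505). The interaction in these libraries, which was added after the first had been seen, was 3.25 ± 0.90 with an adjusted p of 0.0581, where 1.99% of genes were called.

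Some transcripts listed as markers of other cells moved with Cxcl14 in cDC1, though not all of the lists did so with LPS alone. The summed level of 6 stroma or fibroblast markers was 1.70 to 17.1 CPM in cDC1 with LPS and 74.3 to 325.6 CPM in untreated cDC1. It was 6.48 to 28.5 CPM in cDC1 with both agents and 40.7 to 96.5 CPM in cDC1 with PGPC. In cDC2 it was 100.2 to 800.8 CPM with LPS and 160.9 to 359.5 CPM untreated, so the cDC2 groups overlapped. All 6 markers had counts in untreated cDC1, while Col3a1 and Lepr were at 0 in LPS-treated cDC1. A list of 8 neutrophil or granulocyte precursor markers summed to 0 to 6.96 CPM in LPS-treated cDC1 and 47.0 to 198.8 CPM in untreated cDC1, with Elane at 0 in all 8 groups, and to at most 3.91 CPM in any cDC2 library. It summed to 1.16 to 70.2 CPM in cDC1 with both agents and 258.6 to 1148 CPM in cDC1 with PGPC. In the same groups 6 mast cell or basophil markers summed to 0.910 to 2.90 CPM with both agents and 50.5 to 77.9 CPM with PGPC, and 10 monocyte or macrophage markers to 170.8 to 425.4 CPM with both agents and 992 to 1360 CPM with PGPC. With LPS alone these 2 lists overlapped untreated cDC1. The mast cell or basophil sum was 1.472 to 4.724 CPM with LPS and 1.265 to 2.876 CPM untreated. The monocyte or macrophage sum was 387.7 to 924.1 CPM with LPS and 724.5 to 969.8 CPM untreated. The 9 cDC1 markers themselves summed to 433 to 629.7 CPM in LPS-treated cDC1 and 1092 to 1813 CPM in untreated cDC1, and to 367 to 797.6 CPM with both agents and 931.5 to 1076 CPM with PGPC. The 8 cDC2 markers summed to 813.3 to 1118 CPM in LPS-treated cDC1 and 306.5 to 575.7 CPM in untreated cDC1, and to 444.1 to 737.1 CPM with both agents and 254.5 to 317.2 CPM with PGPC. The cells that these transcripts came from, and the part of other cells in the Cxcl14 result, were not tested. In bulk samples fewer cells of a type cannot be told apart from less RNA per cell.

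Cxcl12, the stromal ligand of CXCR4, moved in the same direction as Cxcl14 under LPS in cDC1. It had 0, 0.590 and 0.883 CPM in LPS-treated cDC1, against 17.1, 24.7 and 34.1 CPM untreated, a log2 fold change of -6.28 ± 0.92 (adjusted p = 3.41e-05). In cDC2 it had 23, 17.2 and 13.7 CPM with LPS, against 41.3, 54.2 and 41.2 CPM untreated (-1.34 ± 0.64, adjusted p = 0.246). The interaction for Cxcl12 passed the test (4.94 ± 1.13, adjusted p = 0.0234). For LPS with PGPC against LPS in cDC1, Cxcl12 had 23.2, 1.59 and 12.6 CPM with both agents, 5.24 ± 0.91 above LPS alone on the log2 scale (adjusted p = 0.00349). In the same comparison Cxcl14 held 6 counts with both agents and 0 with LPS (adjusted p = 0.191). The platelet chemokine Pf4 also fell with LPS in cDC1, with 2.61 ± 0.362 CPM with LPS and 33.6 ± 18.8 CPM untreated (-3.75 ± 0.78, adjusted p = 0.00134).

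**Figure D3:**
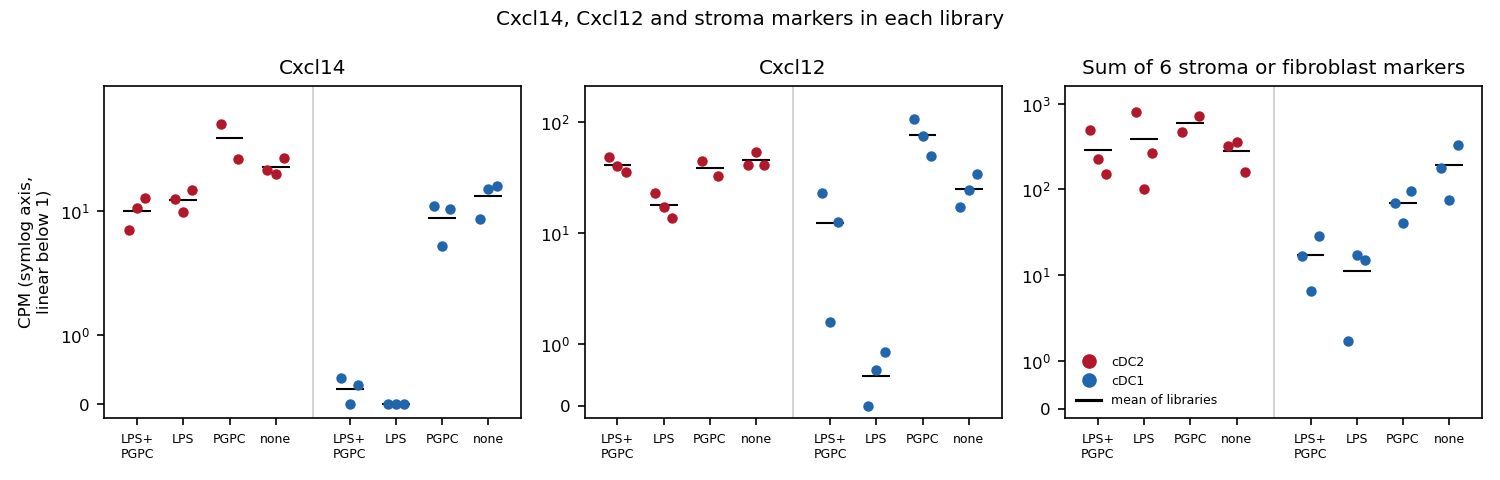
Cxcl14, Cxcl12 and the sum of 6 stroma or fibroblast markers in CPM (vertical axes, logarithmic above 1 and linear below it) in each library, with cDC2 in red on the left, cDC1 in blue on the right and a bar at the mean of the libraries. All 3 measures are lower in every LPS-treated cDC1 library than in every untreated cDC1 library, and Cxcl12 in cDC1 with both agents ranges from 1.59 to 23.2 CPM.

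The second question of the design is what PGPC adds to LPS. None of the 7 ligands passed the test for LPS with PGPC against LPS, in cDC2 (0.385% of genes called) or in cDC1 (1.93% called). In cDC2 the median log2 fold change of the 7 was -0.29, and that of all tested genes was 0.01. In cDC1 Cxcl9, Cxcl11 and Cxcl14 lay under the floor in both groups and the other 4 ligands ran from -0.75 to 1.22, where the median of all tested genes was 0.07. With an unadjusted p under 0.05 there were 0 of 7 in cDC2 (8.05% of all genes) and 3 of 7 in cDC1 (Cxcl9, Cxcl14 and Cxcl16; 16.7% of all genes). DESeq2 called 0 in cDC2 (1.99% of genes with an adjusted p) and 1 in cDC1 (7.31%). Cxcl16 came nearest: the 3 cDC1 libraries with both agents, at 1193 to 1724 CPM, all lay above the 3 with LPS alone, at 372.6 to 1032 CPM. Its log2 fold change was 1.22 ± 0.40 in cDC1 (95% interval 0.40 to 2.04, adjusted p = 0.112) and 0.76 ± 0.39 in cDC2 (-0.06 to 1.57, adjusted p = 0.678), and it was the gene that DESeq2 called in cDC1 (adjusted p = 0.0205). For Cxcl10 the changes were -1.08 ± 0.64 in cDC2 (-2.40 to 0.25, adjusted p = 0.768) and -0.75 ± 0.64 in cDC1 (-2.08 to 0.58, adjusted p = 0.599). All 3 cDC2 libraries with both agents lay below the 3 with LPS for Cxcl10. Cxcl9 in cDC1 had 2 counts with both agents and 17 with LPS, with both group means under the mean floor (adjusted p = 0.283). Its libraries in these groups did not overlap, but the nearest values lay under their own floors. They were 0.294 CPM from 1 count in LPS replicate 3 (floor 0.883 CPM) and 0.227 CPM from 2 counts in replicate 2 with both agents (floor 0.341 CPM).

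PGPC alone against no treatment likewise moved none of the 7 past the threshold, in cDC2 (0.016% of genes called) or in cDC1 (2.08% called). In cDC2, the means of Cxcl1, Cxcl2, Cxcl9 and Cxcl11 lay under the mean floor in both groups. Cxcl2 was still detected there, with 17 counts untreated and 7 with PGPC. The other 3 ran from -4.11 to 0.82 on the log2 scale. In cDC1, Cxcl1, Cxcl9 and Cxcl11 lay under the floor and the other 4 ran from -3.06 to 0.67, with Cxcl10 at its bound. No median of the ligands is therefore given, and that of all tested genes was -0.05 in cDC2 and 0 in cDC1. In each cell 1 of 7 had an unadjusted p under 0.05, and it was Cxcl10 in both (5.8% of all genes in cDC2 and 16.5% in cDC1). DESeq2 called 0 of 7 in cDC2 (0.744% of genes with an adjusted p) and 1 in cDC1 (5.12%). Cxcl10 had no count in the 3 cDC1 libraries with PGPC, against 11 counts in untreated cDC1 (adjusted p = 0.0685), and DESeq2 called this change (adjusted p = 0.0148). In cDC2 it had 1 count with PGPC and 65 counts untreated, a ratio of 0.0503 with a counting interval of 0.00126 to 0.291 (adjusted p = 0.8), and 58 of the 65 counts lay in replicate 5. Both well-counted genes had narrower intervals: Cxcl16 changed by 0.08 ± 0.45 in cDC2 (95% interval -0.84 to 1.00) and 0.67 ± 0.40 in cDC1 (-0.14 to 1.49), and Cxcl14 by 0.82 ± 0.61 in cDC2 (-0.44 to 2.07) and -0.58 ± 0.53 in cDC1 (-1.69 to 0.52). The difference between cells in what PGPC added to LPS was not called for any of the 7, where 0.00802% of genes were called. For that difference 1 of 7 (Cxcl14) had an unadjusted p under 0.05, as did 7.99% of all genes, and DESeq2 called 0 of 7 (0.673% of genes with an adjusted p).

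**Figure D4:**
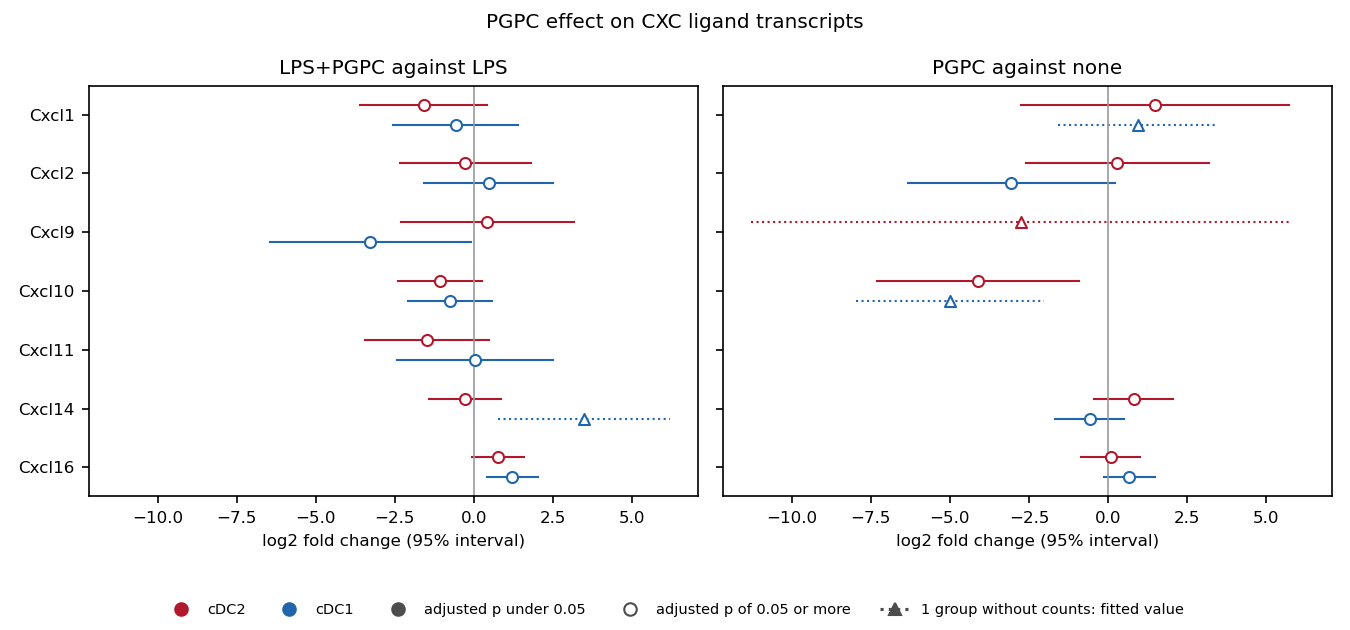
Log2 fold change with its 95% interval (horizontal axis) for LPS with PGPC against LPS on the left and PGPC against no treatment on the right, with cDC2 in red above cDC1 in blue for each gene. All marks are open, so none passed the adjusted threshold; triangles with dotted lines are fitted values of genes without a count in 1 group, and genes without counts in both groups have no mark.

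Between the cells given LPS, with or without PGPC, Cxcl10 and Cxcl11 were higher in cDC2 than in cDC1. With LPS, 3 of the 7 genes were higher in cDC2 (Cxcl10, Cxcl11 and Cxcl14) and none lower, where 7.8% of genes were called, 5.59% higher and 2.21% lower. The median log2 difference of the 7 was 1.89, and that of all tested genes was -0.04. Cxcl10 averaged 501.6 ± 193 CPM in LPS-treated cDC2 and 77.8 ± 22.2 CPM in LPS-treated cDC1, a log2 difference of 2.69 ± 0.67 (adjusted p = 0.0138). The call on Cxcl10 was lost without LPS-treated cDC2 replicate 5 (adjusted p = 0.0573) or LPS-treated cDC1 replicate 1 (adjusted p = 0.0843), and in the fit of all 36 libraries (adjusted p = 0.431). Cxcl11 averaged 23 ± 14.7 CPM in cDC2 and 0.256 ± 0.302 CPM in cDC1 (6.32 ± 1.23, adjusted p = 0.00289). Cxcl9 averaged 3.33 ± 2.91 CPM in cDC2 and 0.908 ± 0.533 CPM in cDC1, which overlap (1.89 ± 1.40, adjusted p = 0.481). Cxcl14 was at least 12.5-fold higher in cDC2 (adjusted p = 1.14e-05). Cxcl16 did not differ detectably, with 770.5 ± 229 CPM in cDC2 and 621.2 ± 358 CPM in cDC1 (0.31 ± 0.39, 95% interval -0.50 to 1.12).

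With both agents, 4 of the 7 were higher in cDC2 and none lower, where 7.14% of genes were called, 4.6% higher and 2.54% lower. The median log2 difference of the 7 was 2.37, and that of all tested genes was -0.03. Cxcl9 joined the other three, with 72 counts in cDC2 and 2 in cDC1, a ratio of 68.2 with a counting interval of 18.2 to 574 (adjusted p = 0.0386). Cxcl10 differed by 2.37 ± 0.66 (238.1 ± 60.7 CPM in cDC2 and 46.0 ± 42.6 CPM in cDC1, adjusted p = 0.0319). Leaving out replicates 1 or 3 of cDC1 with both agents, or 4 or 5 of cDC2 with both agents, ended the calls on Cxcl9 and Cxcl10, with adjusted p from 0.0808 to 0.12 for Cxcl9 and from 0.0655 to 0.111 for Cxcl10. Cxcl9 was also lost without untreated cDC2 replicate 5 (adjusted p = 0.0515). In the fit of all 36 libraries the calls on Cxcl9 (adjusted p = 0.0913), Cxcl10 (0.64) and Cxcl11 (0.0566) were lost, and Cxcl14 remained called. Cxcl11 differed by 4.82 ± 1.10 (8.27 ± 2.35 CPM in cDC2 and 0.280 ± 0.245 CPM in cDC1, adjusted p = 0.0123) and Cxcl14 by 5.36 ± 0.70 (9.97 ± 2.80 CPM in cDC2 and 0.222 ± 0.199 CPM in cDC1, adjusted p = 4.18e-05).

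Without treatment the one ligand called between the cells was Cxcl10, with 5.62 ± 8.16 CPM in cDC2 and 0.497 ± 0.453 CPM in cDC1 (3.42 ± 0.90, adjusted p = 0.0177), where 10.2% of genes were called, 4.01% higher and 6.14% lower. That call rested on untreated cDC2 replicate 5 at 15 CPM, without which the difference was 1.28 (adjusted p = 0.571), and it was also lost without replicate 2 (adjusted p = 0.0613) or 3 (adjusted p = 0.0574) of untreated cDC1 and in the fit of all 36 libraries (adjusted p = 0.356). Leaving out untreated cDC1 replicate 1 added a call on Cxcl2 (adjusted p = 0.0171), against a group that then held no count of it. Apart from Cxcl14, no ligand showed a difference between cells in its LPS effect that passed the test, and Cxcl11, with no untreated counts, has no estimate. The estimate was -0.73 ± 1.07 for Cxcl10 (95% interval -2.95 to 1.48, adjusted p = 0.835) and -0.72 ± 0.56 for Cxcl16 (-1.88 to 0.43, adjusted p = 0.62).

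Markers of monocytes or macrophages, cells that can make CXCR3 ligands, were higher in the cDC2 cultures. Their summed level over 10 genes was 1251 to 3933 CPM in LPS-treated cDC2 and 387.7 to 924.1 CPM in LPS-treated cDC1. It was 1009 to 2804 CPM in cDC2 with both agents and 170.8 to 425.4 CPM in cDC1 with both agents, and 2204 to 3065 CPM in untreated cDC2 and 724.5 to 969.8 CPM in untreated cDC1. All 10 genes had counts in each of these groups except F13a1, which was at 0 in LPS-treated cDC1. A list of 7 plasmacytoid markers summed to 182.8 to 508 CPM in LPS-treated cDC2 and 18.7 to 59.7 CPM in untreated cDC2. Only 4 of the 7 had counts in LPS-treated cDC2, where Siglech, Ly6d and Klk1 were at 0, and 5 had counts in untreated cDC2. In cDC1 the list summed to 76.8 to 112.4 CPM with LPS and 143.7 to 348.7 CPM untreated. Whether these 2 sums reflect other cells in the cultures was not tested, nor was the part of such cells in the differences between cDC2 and cDC1.

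A few other genes of the lists also differed between the LPS-treated cells, where 5.59% of all tested genes were called higher in cDC2 and 2.21% lower. In the interferon axis 1 of 11 tested genes was higher and none lower, and in the processing and decay list 1 of 7 was lower and none higher. None of the 8 NF-kB axis genes or 4 tested receptors was called. Of 5 tested other CXC ligands, 3 were higher and 1 lower. Irf7 averaged 3362 ± 952 CPM in LPS-treated cDC2 and 768.1 ± 381 CPM in LPS-treated cDC1 (2.13 ± 0.58, adjusted p = 0.0212). Dpp4 was lower in cDC2, with 20.7 ± 15.5 CPM in LPS-treated cDC2 and 79.5 ± 30.6 CPM in LPS-treated cDC1 (-1.94 ± 0.58, adjusted p = 0.0397). Cxcl5, a CXCR2 ligand, had 22 counts in LPS-treated cDC2 and 0 in LPS-treated cDC1 (adjusted p = 0.0403). Cxcl12 averaged 18 ± 4.72 CPM in LPS-treated cDC2 and 0.491 ± 0.450 CPM in LPS-treated cDC1 (5.78 ± 0.93, adjusted p = 0.000224). Pf4 was likewise higher in cDC2 (3.23 ± 0.78, adjusted p = 0.00898), and Ppbp, with 0 counts in cDC2 and 47 in cDC1, was higher in cDC1 (adjusted p = 0.0418).

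Across the 23 libraries the ligands fell into patterns that can be read from their most similar transcripts, by Pearson's r on log2 CPM with a prior count of 2. The libraries share treatments and depth, so these values are a description. Cxcl1 was most like Il6 (0.955), Sprr2d (0.928) and Cxcl10 (0.921), and Cxcl2 was most like Cxcl3 (0.905), Kdr (0.896) and Nr4a3 (0.869), with the shared Cxcl2 and Cxcl3 reads bearing on the first. Cxcl10 was closest to Ifit2 (0.976), Gbp5 (0.974) and Ifi213 (0.967), all 3 known as interferon-induced genes. Cxcl11 was closest to Slfn4 (0.963), Slc44a5 (0.960) and Cxcl5 (0.955), and Cxcl9, at its low counts, to Misp (0.878), Tgm1 (0.858) and Ifi208 (0.839). Cxcl16 followed Gbp2 (0.946), Traf1 (0.943) and Nsun4 (0.943), and Cxcl14 followed Ptk7 (0.945), Gpc4 (0.944) and Csf1 (0.934). Within the family r was highest between Cxcl1 and Cxcl10 (0.921), and Cxcl14 had negative values with Cxcl16 (-0.515), Cxcl2 (-0.463) and Cxcl1 (-0.419).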

How the data were processed

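RNA worth about 2000 cells per reaction was reverse transcribed with Smart-Seq2 and sequenced as paired ends, per the labels' protocols. The authors deposited expected counts per gene made with RSEM on GRCm38 after bcl2fastq 2.2, per the submitters' processing notes; the sources used here do not state the aligner, the annotation or the RSEM version. In the 23 libraries used, 20.95% of nonzero values were not whole, so counts were rounded.

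Groups came from the labels. A single edgeR 4.0.16 quasi-likelihood fit (limma 3.58.1, R 4.3.3, robust) held 8 group means with TMM factors. The filter on low counts was filterByExpr with a minimum count of 10 and a total of 15, and p-values were adjusted by Benjamini-Hochberg. Totals limit precision as the floors in the text state. Floors and the counting intervals on ratios cover counting error only, since reads carry no molecular identifiers. Intervals on log2 fold changes, in the text and figures, come from standard errors derived from the quasi-likelihood test. Each is the absolute log2 fold change divided by the square root of the test's F statistic. Those standard errors also take in the spread between libraries. No pair of libraries held identical values, and Spearman's rho within groups was 0.824 to 0.961.

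The genes named are the 7 ligands, members of 5 pathway lists that passed the test in a comparison described, members singled out for a direct role, and the 3 transcripts most correlated with each ligand. The ligands and lists were chosen with earlier results of these data known. The fit was tested on simulated data. Alternatives were RLE factors, no filter, a replicate block, DESeq2 1.42.0, all 36 libraries, leaving out ribosomal RNA rows, and leaving out each library.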

Additional observations from a re-analysis of the deposited data

Results flagged for a closer look

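The LPS effect on Cxcl14 differed between the cells by 8.42 ± 1.27 on the log2 scale (cDC2 minus cDC1, adjusted p = 0.00145 by edgeR), and the difference itself passed the test. It remained called in every alternative fit that was run.

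Among the libraries left out, replicate 2 of cDC1 with LPS and alum held 275 counts of Cxcl10, or 85.4 CPM of its library total, against at most 0.808 CPM in untreated cDC1. The same library held 1660 counts of Cxcl16, or 516 CPM, against at most 84.7 CPM in untreated cDC1. Both are signals in a library no comparison uses that lie above untreated cells. Replicates 1 and 3 of that group held 0 and 1 counts of Cxcl10 and 1 and 3 counts of Cxcl16. These libraries enter no comparison, and groups of 3 were not searched for outlying samples.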

How the results depend on the processing

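Of 2619 comparisons of a member's value between an alternative fit and the reported one, 2503 kept their direction and their side of the threshold, 45 lost a call, 39 gained one and 32 turned in direction, the last all among values that passed no test. The calls kept in every fit that could be run were those on Cxcl1, Cxcl10 and Cxcl14 in cDC1 with LPS, on Cxcl10 and Cxcl11 in cDC2 with LPS, on Cxcl1, Cxcl2, Cxcl10 and Cxcl14 in cDC1 for LPS with PGPC against PGPC, on Cxcl11 and Cxcl14 between LPS-treated cells, on Cxcl14 between cells with both agents, and on the Cxcl14 interaction. Depth limits Cxcl9, Cxcl11 in cDC1 and the ligands other than Cxcl2, Cxcl14 and Cxcl16 in cDC2 with PGPC, where 2 libraries gave 1 count of Cxcl1 and of Cxcl10.

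The number of the 7 ligands called moved by more than 1.5 times with these settings, and the cause was not tested. For LPS with PGPC against PGPC in cDC2, where 2 were called, it was 0 with all 36 libraries, 4 with DESeq2, and 2 to 4 with 1 library left out. Between cDC2 and cDC1 given both agents, where 4 were called, it was 1 with all 36 libraries and 2 to 4 with 1 library left out. Between untreated cells, where 1 was called, it was 0 with all 36 libraries, 2 with DESeq2, and 0 to 2 with 1 library left out. For LPS with PGPC against LPS in cDC1 it was 0, and 1 with DESeq2. For PGPC against no treatment in cDC1 it was 0, 1 without the filter or with DESeq2, and 0 to 1 with 1 library left out, and the same values held for the added interaction in libraries with PGPC. Smaller moves were seen for LPS, with 5 calls in cDC1 by DESeq2 or without the filter, against 3 with all 36 libraries, where cDC2 also had 3; for LPS-treated cells, with 2 with all 36 libraries; for LPS with PGPC against PGPC, with 3 in cDC2 by RLE factors or without the filter, and in cDC1 with 5 by RLE factors, the block or DESeq2 and 4 with all 36 libraries. With 1 library left out, LPS gave 4 to 5 calls in cDC1 and 3 to 4 in cDC2, LPS with PGPC against PGPC 5 to 6 in cDC1, and the difference between LPS-treated cells 2 to 3. With all 36 libraries fewer genes were called in each of the 14 comparisons: for LPS 596 in cDC1 and 232 in cDC2, against 2235 and 1062 in the fit reported.

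Directions that turned belonged to uncalled log2 changes, and some of these had no estimate, as stated below. With the replicate block, Cxcl11 had -0.14 for LPS with PGPC against LPS in cDC1, Cxcl16 had -0.02 for PGPC in cDC2, and the difference between cells in what PGPC added to LPS was 0.31 for Cxcl10. DESeq2 gave Cxcl1 -0.52 for PGPC in cDC1. Leaving out 1 library gave these ranges. For LPS with PGPC against LPS they were -1.05 to 0.02 for Cxcl1 and -0.53 to 0.93 for Cxcl11 in cDC1, and -1.09 to 0.22 for Cxcl2 and -0.09 to 0.92 for Cxcl9 in cDC2. For PGPC against no treatment they were -4.61 to 1.97 for Cxcl2 in cDC1, and -2.80 to 4.26 for Cxcl1, -6.59 to 0.93 for Cxcl2 and -0.10 to 0.25 for Cxcl16 in cDC2. Between cells given both agents they were -0.16 to 0.79 for Cxcl1, -0.97 to 0.34 for Cxcl2 and -0.45 to 0.03 for Cxcl16. For the LPS effect in cDC2 minus cDC1 they were -2.22 to 1.33 for Cxcl1, -6.02 to 0.11 for Cxcl2, -1.62 to 1.90 for Cxcl9 and -1.24 to 1.41 for Cxcl10. The upper ends for Cxcl1 and Cxcl9 came from the fit without untreated cDC2 replicate 5. Both untreated groups then held no count of the gene, so these values are not estimates (standard errors 1720 and 4719). In libraries with PGPC the difference between cells in the LPS effect ran from -3.68 to 1.30 for Cxcl1, -6.75 to 1.80 for Cxcl2 and -2.47 to 2.37 for Cxcl10. The value of 2.37 is likewise not an estimate, since without cDC2 PGPC replicate 4 neither PGPC group held a count of Cxcl10. The difference in what PGPC added to LPS ran from -0.89 to 0.69 for Cxcl10.

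Replicate numbers were entered as a block for the treatment comparisons, and not between cDC1 and cDC2, whose numbers differ. Deviations from group means correlated between same-numbered libraries from -0.0413 to 0.176 in cDC1 and from -0.188 to 0.52 in cDC2. Between libraries of different numbers they ran from -0.159 to 0.0908 and from -0.45 to 0.332, ranges that overlap. The medians were 0.0484 in cDC1 and 0.00428 in cDC2 for the same number, against -0.03 and -0.00413 for different numbers. Overlapping ranges cannot show whether same-numbered libraries were paired. Under the block 1 call on a ligand was lost, that on Cxcl11 in cDC1 for LPS with PGPC against PGPC (adjusted p = 0.108). DESeq2 called the added Cxcl14 interaction (3.37, adjusted p = 0.0124).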
